A study of Mus musculus with 32 samples.

Results

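Gene deserts are stretches of chromosome without protein-coding genes. The regions described here are the H3K9me3 peaks of male mouse germ cells whose midpoint lay more than 500 kb from the nearest RefSeq protein-coding gene body, on chromosomes 1 to 19 of GRCm38 (mm10). There were 73165 such peaks among 581860 autosomal peaks, or among 611609 peaks of all chromosomes, summed over 8 peak lists. The study prepared gonocytes, the germ cells of the fetal and newborn testis, from Mvh-Venus transgenic mice. They were taken before birth, at the embryonic stages E13.5 and E16.5, and after it, at the postnatal stages P0 and P3. At each stage 1 group was heterozygous for Morc1 (Morc1 (+/-), het) and the other lacked it (Morc1 (-/-), KO), so every group carried the reporter and no group was wild type. Morc1 encodes a nuclear ATPase of male germ cells that is known for its part in silencing transposable elements. Each of the 8 groups had 2 H3K9me3 ChIP-seq samples, matched with 2 samples in which histone H3 was precipitated, and each group was represented by 1 list of H3K9me3 peaks.

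Each group had a single list, so no value below has a replicate error, and differences between lists were not tested. The autosomal lists held from 50191 peaks (E13.5 het) to 89020 (P0 KO). Read depth is unknown, and the number and width of called peaks can depend on it. Lists of peak positions measure neither Morc1 expression nor markers of the sorted cells, so neither the knockout nor the cell type was checked. Brackets give Wilson intervals at 95%. These hold only the error of counting and treat neighbouring peaks as independent.

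H3K9me3 is the trimethyl mark on lysine 9 of histone H3. It is laid down by the SETDB1 and SUV39H enzymes, read by HP1 proteins, and marks repeat-rich, compact chromatin. In male germ cells the mark lies over transposable elements during the fetal period in which DNA methylation is erased and then rebuilt. Gene deserts tend to be AT-rich, replicate late, lie at the nuclear lamina and hold many LINE-1 elements. Many of them flank developmental genes and carry their distant enhancers.

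The 20558 autosomal coding genes left 246 gaps wide enough to hold a point more than 500 kb from a gene on either side. The part of such a gap beyond 500 kb from both flanking genes is called its core. The cores added up to 201.4 Mb, or 8.399% of the 2397 Mb between the first and the last peak of the autosomes, and their median length was 0.499 Mb. Peaks of all 8 lists were found in 232 cores, and 3 cores had no peak in any list. By the start of their symbols, 224 coding genes (1.09%) belonged to a chosen list of cell adhesion and axon guidance families, such as cadherins, protocadherins, Slitrk proteins, teneurins and Eph receptors, which leaves out other genes of these functions and can take in genes that only share a symbol's start. They were 37 of the 455 flanking genes (8.13%). Among the 97 genes that flank the 50 longest deserts they were 22 (22.7%). Listed families of ion channels and transmitter receptors were 2.64% of flanking and 0.866% of all coding genes, and listed families of transcription factors 1.98% and 0.725%. Genes with symbols of odorant or vomeronasal receptors were 7.07% of all coding genes, and none of them flanked a desert. The genes flanking deserts were set by the genome and not by the peaks. In 3 deserts the core held antigen receptor gene segments, which RefSeq does not class as protein-coding, among them Adam6a to Zfp386 on chromosome 12 and Gm36448 to Dad1 on chromosome 14.

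The cores held 21 miRNA genes, which give exact short sequences to the chromatin called there. All 21 matched a mature sequence in RefSeq (GRCm38.p6). Sequences are shown first for the Mir344 family, because 8 of the 21 genes belong to it and because its members differed in peak cover. These 8 genes lie on the minus strand within 154.3 kb (chr7:61683124-61837402), between the coding genes Gm51483 and Ndn, which encodes the imprinted protein necdin. Capitals mark the seed, bases 2 to 8, with which a miRNA pairs to its targets.
mmu-miR-344d-3p: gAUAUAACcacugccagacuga
mmu-miR-344e-3p: gAUAUAACcaaagccugacuau
mmu-miR-344b-3p: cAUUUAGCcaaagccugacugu
mmu-miR-344c-3p: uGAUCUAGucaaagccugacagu
mmu-miR-344h-3p: gGUAUAACcaaagcccgacugu
mmu-miR-344d-1-5p: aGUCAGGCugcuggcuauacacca
mmu-miR-344d-3-5p: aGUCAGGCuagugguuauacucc
mmu-miR-344b-5p: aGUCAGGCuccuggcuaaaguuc
mmu-miR-344c-5p: aGUCAGGCugcuggcuagaguac

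Mature miRNAs miR-344d-3p and miR-344e-3p share the seed AUAUAAC, and the 4 sequences shown that end in 5p share GUCAGGC. The whole hairpins of Mir344d-1, Mir344d-2, Mir344d-3 and Mir344c lay in a peak in all 8 lists. Mir344d-1 and Mir344d-2 always lay in the same peak, which was 89.0 kb wide in the E13.5 KO list and 19.5 kb in the P3 het list. Mir344b lay in a peak in the 4 embryonic lists, of 35.4 kb (het) and 35.8 kb (KO) at E13.5 and 28.5 kb and 19.4 kb at E16.5. It had no base in a peak in the 4 postnatal lists, where the nearest peak was 0.8 to 1.5 kb away. Mir344e, which shares its 3p seed with Mir344d, lay in a peak in all embryonic lists and at P0 in KO, and in none at P0 in het or at P3. The nearest peak to Mir344e was only 0.1 kb away at P0 in het, and 0.8 kb (het) and 0.9 kb (KO) away at P3. Mir344h-1 and Mir344h-2, whose hairpins are identical, had no base in a peak in any list, although the nearest peak was at most 1.5 kb away. Reads of identical copies can be discarded or divided in alignment, and their treatment is not given in the sources used here.

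Outside the Mir344 family, the hairpins of Mir6370, Mir6238, Mir7094-1, Mir7094-2 and Mir3961 were covered whole in all 8 lists. Mir6342 was covered in every list except P3 het, where the nearest peak was 1.0 kb away. The other 7 had no base in a peak in any list. Both Mir135a-2 and Mir125b-2, members of families conserved across vertebrates, were among these. A sequence from each pattern is shown, with Mir6370 and Mir3961 as covered genes, Mir6342 as the gene absent from 1 list, and the last pair as genes never covered.
mmu-miR-6370: gCAGGAACagcaaaggggaag
mmu-miR-3961: uGCCCUCAgcucaguugga
mmu-miR-6342: cAGCAGCAaucuggucuuugag
mmu-miR-135a-5p: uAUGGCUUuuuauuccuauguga
mmu-miR-125b-5p: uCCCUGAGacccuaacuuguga

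Mir6370 (chr6:19555342-19555461, between Ankrd7 and Kcnd2) lay inside a peak 41.6 to 53.9 kb wide in all lists. Mir3961 (chr13:82698275-82698333, between Cetn3 and Mef2c) lay in peaks of 2.88 to 6.87 kb. For Mir135a-2 the nearest peak was 48.5 to 50.1 kb away in the embryonic lists and 6.6 to 7.3 kb away in the postnatal lists. Counted over genes with any base in a peak, 9 to 12 of the 21 desert miRNA genes were touched per list, against 3.05% to 6.10% of the 1115 miRNA genes elsewhere on the autosomes. The 8 Mir344 genes weigh heavily in this share, and in each list 3 to 5 peaks held all members of the family that were covered.

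Promoters of non-coding RNA genes were the other desert sequences that could be read. RefSeq promoter windows of 300 bases, from 250 before to 50 after a transcript start, numbered 231 in the cores, from 206 genes. At least 50% of the window lay in a peak for 19 (het) and 24 (KO) of them at E13.5, 47 and 36 at E16.5, 33 and 32 at P0, and 27 and 29 at P3. The share was 8.23% [5.33 to 12.5%] in the E13.5 het list and 20.3% [15.7 to 26.0%] in the E16.5 het list. For the 31165 other autosomal promoters, which were not limited to non-coding genes, it ranged from 3.90% to 6.02%. In each list the share of desert promoters was below the share of core length in peaks. The latter was 16.1% in the E13.5 het list and 32.1% in the E16.5 het list. Desert promoters had a median GC content of 42.3%, against 53.0% for all 31396 autosomal promoters, again of any gene class. The dinucleotide CG, the site of DNA methylation, reads the same on both strands. It was present in 81.8% of desert promoters and in 94.8% of all, with medians of 2 and 7 CG per window. The highest count in a desert promoter was 18 CG, found in 1 of the 231, and 30.3% of all autosomal promoters held at least that many. This limit was taken from the desert promoters themselves, so the comparison at it is a description only.

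In 3 promoters the cover was the same at P0 and P3 and differed between genotypes at both, and these are shown 5′ to 3′ along the gene with each CG in capitals. Gm41932, from the same desert as Gm46244, is shown with them because it was covered in all 8 lists. The 3 were 2 het-only windows (0.866% of desert promoters) and 1 KO-only window (0.433%). Of the other autosomal promoters 60 (0.193%) were het-only and 118 (0.379%) KO-only by the same rule, so counts this small set nothing apart in deserts.
Gm46244: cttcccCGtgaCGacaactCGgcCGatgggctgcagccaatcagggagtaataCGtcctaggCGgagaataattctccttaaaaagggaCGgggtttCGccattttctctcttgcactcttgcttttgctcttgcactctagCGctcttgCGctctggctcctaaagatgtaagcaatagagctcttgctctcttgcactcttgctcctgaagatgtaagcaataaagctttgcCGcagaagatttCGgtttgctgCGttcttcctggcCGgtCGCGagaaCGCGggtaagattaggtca
Gm42185: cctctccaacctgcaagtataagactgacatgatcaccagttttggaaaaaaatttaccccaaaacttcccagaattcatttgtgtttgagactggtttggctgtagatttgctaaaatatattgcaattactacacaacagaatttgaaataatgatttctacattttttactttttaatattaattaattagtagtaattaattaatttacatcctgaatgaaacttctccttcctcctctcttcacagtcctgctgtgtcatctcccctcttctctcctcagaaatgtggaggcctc
4933402J10Rik: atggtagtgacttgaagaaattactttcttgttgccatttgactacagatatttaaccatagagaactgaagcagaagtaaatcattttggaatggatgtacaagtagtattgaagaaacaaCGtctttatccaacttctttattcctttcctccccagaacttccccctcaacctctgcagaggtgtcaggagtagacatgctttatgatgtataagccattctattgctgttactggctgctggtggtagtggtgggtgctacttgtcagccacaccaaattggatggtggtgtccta
Gm41932: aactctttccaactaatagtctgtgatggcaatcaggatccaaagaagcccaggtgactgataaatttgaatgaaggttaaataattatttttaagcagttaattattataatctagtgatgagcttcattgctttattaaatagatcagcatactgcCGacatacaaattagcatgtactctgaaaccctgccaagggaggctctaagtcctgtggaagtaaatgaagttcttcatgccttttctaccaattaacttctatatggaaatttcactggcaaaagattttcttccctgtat

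The Gm46244 window (chr1:113145271-113145570, plus strand, between Dsel and Cntnap5a) holds 18 CG, the only desert promoter with that many. It lay wholly in a peak in both genotypes at E13.5 and E16.5 and in het at P0 and P3, in peaks of 14.4 to 91.9 kb. It had no base in a peak in KO at P0 or P3, where the nearest peak lay 0.8 and 0.6 kb away. The Gm41932 window, in the same desert (chr1:113101869-113102168, minus strand), lay wholly in a peak in all 8 lists and holds 1 CG. The Gm42185 window (chr3:17069422-17069721, minus strand, between Ythdf3 and Cypt12) has no CG and was covered in the het lists at P0 (peak of 8.07 kb) and P3 (3.61 kb) and in no other list. The nearest peak lay 11.4 kb away in the P0 KO list and 12.1 kb away in the P3 KO list. The 4933402J10Rik window (chr5:59985953-59986252, minus strand, between Pcdh7 and G6pd2) showed the opposite order, with peaks of 1.80 and 1.70 kb in the KO lists at P0 and P3 and no base covered in the other 6 lists. All 4 genes are non-coding RNA genes in RefSeq, and whether they are expressed in these cells was not measured here.

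Desert cores were covered more densely than the rest of the autosomes in every list. In the het lists, peaks took up 16.1% of the core length at E13.5 and 32.1% at E16.5, and after birth 27.6% (P0) and 22.2% (P3). In the KO lists they took up 17.5%, 29.2%, 26.9% and 23.1%. The same shares in the rest of the autosomes were 5.80%, 10.4%, 11.5% and 10.6% in het and 6.68%, 9.56%, 12.3% and 11.7% in KO. The ratio of core to rest was thus highest at E16.5, at 3.09 in het and 3.06 in KO, and lowest at P3, at 2.09 and 1.97. In the rest the highest cover was reached at P0, and in the cores at E16.5.

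**Figure D1:**
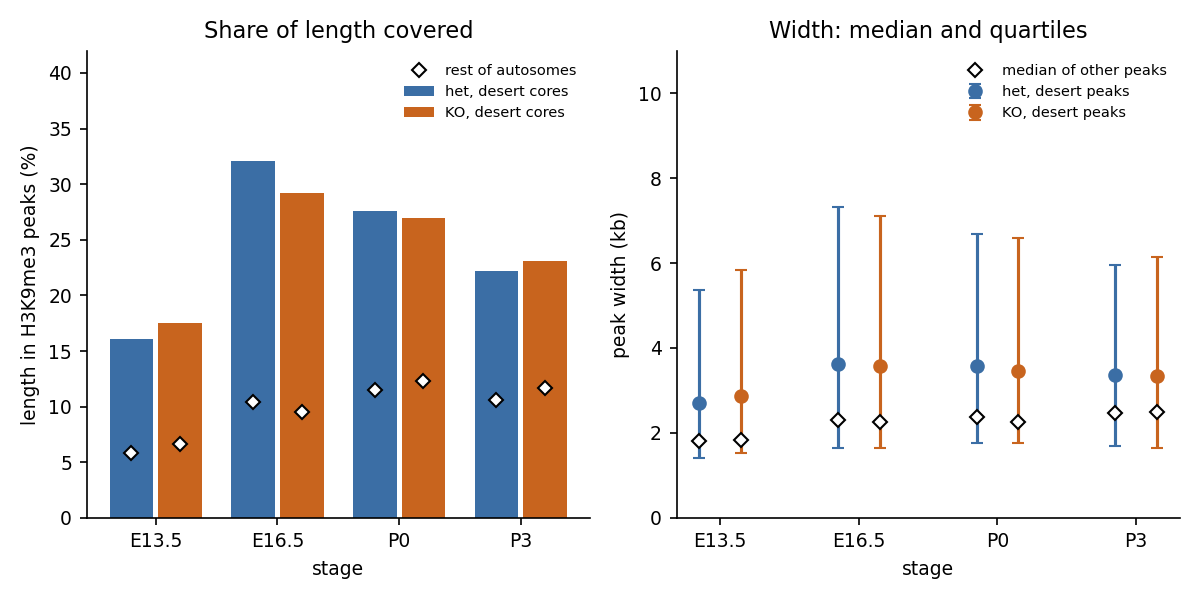
Left, the percentage of desert core length in H3K9me3 peaks (bars) and of the rest of the autosomes (diamonds) by stage for het and KO; right, the width of desert peaks in kb (point, median; bars, quartiles) and the median width of other autosomal peaks (diamonds). Bars stood at 16.1% to 32.1% and diamonds at 5.80% to 12.3%, and the median desert peak was wider than the median of other peaks in all 8 lists.

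Desert peaks numbered 6510 in het and 6557 in KO at E13.5, 10371 and 9776 at E16.5, 10560 and 10244 at P0, and 9565 and 9582 at P3. They were 11.5% [11.3 to 11.7%] of the autosomal peaks in the P0 KO list and 13.9% [13.6 to 14.1%] in the E16.5 het list, which were the lowest and the highest share. Their summed width was 32.3 Mb in het and 35.3 Mb in KO at E13.5, 64.7 and 58.8 Mb at E16.5, 55.6 and 54.3 Mb at P0, and 44.7 and 46.5 Mb at P3. As a share of the covered length of the autosomes this was 20.3%, 22.1%, 18.0% and 16.1% in het and 19.4%, 21.9%, 16.8% and 15.3% in KO. The share of length was larger than the share of peaks in all lists, and it was smaller in KO than in het at each stage.

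Desert peaks were wider than other peaks. Their median width was 2707 bp in het and 2872 bp in KO at E13.5, 3624 and 3584 bp at E16.5, 3573 and 3447 bp at P0, and 3363 and 3341 bp at P3. Medians of the other autosomal peaks were 1804 and 1841 bp, 2306 and 2259 bp, 2383 and 2260 bp, and 2463 and 2495 bp. The most common width, 1001 bp, was held by 11.5% to 16.7% of desert peaks and by 15.2% to 23.3% of other peaks. Peaks of at least 3 kb made up 45.8% [44.6 to 47.0%] of desert peaks in the E13.5 het list and 56.8% [55.8 to 57.7%] in the E16.5 het list, against 25.9% and 37.8% of other peaks.

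The widest peaks differed most by stage. Desert peaks of at least 30 kb numbered 104 in het and 125 in KO at E13.5, 217 and 184 at E16.5, 65 and 74 at P0, and 30 and 37 at P3. Outside deserts such peaks numbered 171 (het) and 220 (KO) at E13.5, 232 and 219 at E16.5, 126 and 147 at P0, and 58 and 74 at P3, so their number was also lower after birth there. Deserts held 48.3% of all autosomal peaks of that width in the E16.5 het list and 33.3% to 45.7% in the other 7 lists. Between E16.5 and P3 the number of desert peaks of all widths differed little (10371 and 9565 in het), while the share of desert length in peaks of at least 10 kb was 52.7% at E16.5 and 30.6% at P3. In KO these shares were 50.4% and 35.0%. The widest desert peak of any list was 179.3 kb, in the E13.5 KO list (chr16:61379501-61558789). It lay between Epha6, an Eph receptor, and Nsun3, a mitochondrial tRNA methyltransferase. Peaks of the other lists covered 120.5 kb (P3 het) to 175.6 kb (E13.5 het) of the same interval, so that its call as 1 peak differed more between lists than its cover. The widest desert peak was 119.6 kb in the E13.5 het list and 119.8 kb in the E16.5 het list, both also between Epha6 and Nsun3. It was 123.2 kb in the E16.5 KO list (chr12:114943935-115067143), inside the immunoglobulin heavy chain locus. The widest was 70.1 kb in P0 het (Tenm3 to Aga), 90.2 kb in P0 KO (Slitrk1 to Slitrk6), 55.5 kb in P3 het (4931408C20Rik to Gm597) and 52.9 kb in P3 KO (Ankrd7 to Kcnd2). The last of these peaks is the one that holds Mir6370.

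Cover was compared across 6 classes of distance from coding genes, of which the outer pair are the deserts. At E16.5 in het it was 5.63% inside coding genes, 11.9% within 50 kb of them, 14.3% from 50 to 200 kb, 19.5% from 200 to 500 kb, 29.5% from 500 kb to 1 Mb and 37.6% beyond 1 Mb. At P3 in het the series ran from 6.61% inside genes to 20.8% from 500 kb to 1 Mb and 25.0% beyond 1 Mb. In both genotypes and at all 4 stages each desert class was covered more than any class nearer to genes. The rule's limit of 500 kb fell inside this gradient: in the E16.5 het list, 1067 peaks just inside it (500 to 550 kb) had a median width of 3213 bp, and 1183 peaks just outside it (450 to 500 kb) had a median of 3243 bp.

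**Figure D2:**
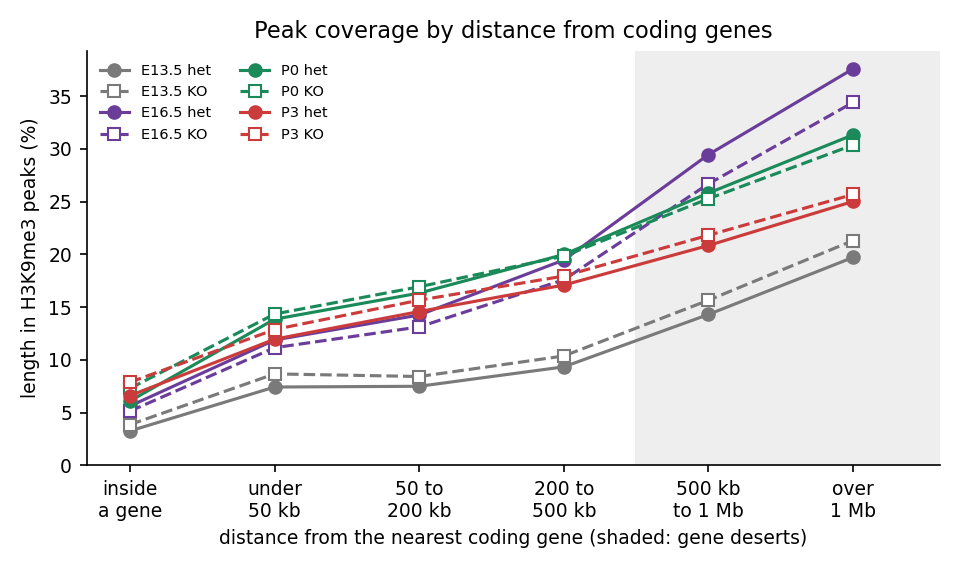
The percentage of length in H3K9me3 peaks (vertical axis) in 6 classes of distance from the nearest coding gene (horizontal axis; shaded, gene deserts), 1 line per list. The E13.5 lines lie lowest throughout, and the E16.5 het line is below the P0 het line in the 4 classes nearest to genes and highest in the deserts, where it reaches 37.6%.

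Stages were compared next, to ask how desert cover developed through the gonocyte period. The desert length at E16.5 exceeded that at E13.5 by a factor of 1.999 in het and 1.67 in KO, against 1.79 and 1.43 in the rest of the autosomes. Cover was larger at E16.5 in 121 of the 122 deserts with a core of at least 0.5 Mb in het and in 119 in KO. Among 1947 windows of 1 Mb outside the cores, 96.2% in het and 85.6% in KO were larger at E16.5. The number of desert peaks was larger by a factor of 1.59 in het and 1.49 in KO, and the median width was larger as well.

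Between E16.5 and P0 deserts and the rest of the autosomes differed in opposite directions. The desert length at P0 was 0.860 of that at E16.5 in het and 0.924 in KO, whereas the rest stood at 1.11 and 1.28 times its E16.5 length. The desert ratio was below the ratio of the rest on all 19 autosomes in both genotypes. Of the 122 large deserts, 45 in het and 52 in KO had more cover at P0 than at E16.5, or 36.9% and 42.6%. Of the windows outside the cores, 79.0% in het and 94.4% in KO did. The number of desert peaks hardly differed, at 1.02 and 1.05 times the E16.5 number. The mean width of a desert peak was 6234 bp at E16.5 and 5267 bp at P0 in het, and 6011 and 5300 bp in KO.

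At P3 the desert length was 0.804 of that at P0 in het and 0.856 in KO, against 0.921 and 0.954 in the rest, and again the desert ratio was below that of the rest on all 19 autosomes in both genotypes. Cover was larger at P3 in 6 large deserts in het and in 13 in KO (4.92% and 10.7%), against 46.6% and 48.7% of windows. Across distance classes, the ratio of P3 to E16.5 in het was 1.18 inside genes, 0.877 from 200 to 500 kb, 0.708 from 500 kb to 1 Mb and 0.666 beyond 1 Mb. In KO it was 1.54, 1.02, 0.818 and 0.748. Between E16.5 and P3 the lists thus differed by a factor above 1 in genes and below 1 in deserts.

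The base pairs that made up these differences were followed. Of the core length in peaks at E13.5, 3.58% in het and 5.58% in KO was outside peaks at E16.5, against 13.3% and 18.9% in the rest of the autosomes. Of the core length in peaks at E16.5, 28.2% in het and 22.9% in KO was outside peaks at P0, against 22.5% and 16.53% in the rest. From P0 to P3 the core values were 25.1% and 21.9%, and those of the rest 25.2% and 23.2%. New cover at P3, absent at P0, was 6.87% of the core length in het and 8.89% in KO, against 18.8% and 19.5% in the rest.

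Counted by peaks, 162 of the 6510 desert het peaks at E13.5 (2.49%) had no base in an E16.5 het peak, against 13.3% of all autosomal het peaks. In KO, 269 desert peaks (4.10%) had none, against 18.0%. New desert peaks at E16.5 were 49.6% in het and 43.2% in KO, against 45.8% and 38.2% of all autosomal peaks. Of the E16.5 desert peaks, 23.0% (het) and 19.9% (KO) lacked any base in a P0 peak, against 21.8% and 15.6%. Of those at P0, 16.7% and 19.2% had none at E16.5, against 28.5% and 34.3%. Desert peaks at P0 without a P3 peak were 21.6% in het and 19.2% in KO, close to the 21.3% and 21.2% of all autosomal peaks. Desert peaks at P3 without a P0 peak were 5.08% and 7.68%, against 14.1% and 13.6%. In the postnatal lists the desert peaks thus included fewer new ones than autosomal peaks at large, while the share of P0 peaks without a P3 peak was near that of all peaks. Desert peaks were also wider and their cover denser, and the part of both in these shares was not tested.

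To ask how desert cover differed with loss of Morc1, KO and het were compared within each stage. From E13.5 to P3, the desert length in KO was 1.09, 0.909, 0.976 and 1.04 times that in het. In the rest of the autosomes it was 1.15, 0.921, 1.06 and 1.10. The ratio was lower in deserts than in the rest on 17 of 19 autosomes in the E13.5 lists, on 15 in those of E16.5, and on 19 in those of P0 and of P3. At P0 the desert ratio lay below 1 and that of the rest above it. The 95% counting interval of this desert ratio included 1, so its direction is uncertain even by counting error. This interval was carried over from the ratio of peak numbers. It leaves out the spread of peak widths and does not measure the error of length. By chromosome, the desert ratio at P0 was above 1 on 4 autosomes and that of the rest on 19. The numbers of desert peaks in KO were 1.01, 0.943, 0.970 and 1.00 times those in het.

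**Figure D3:**
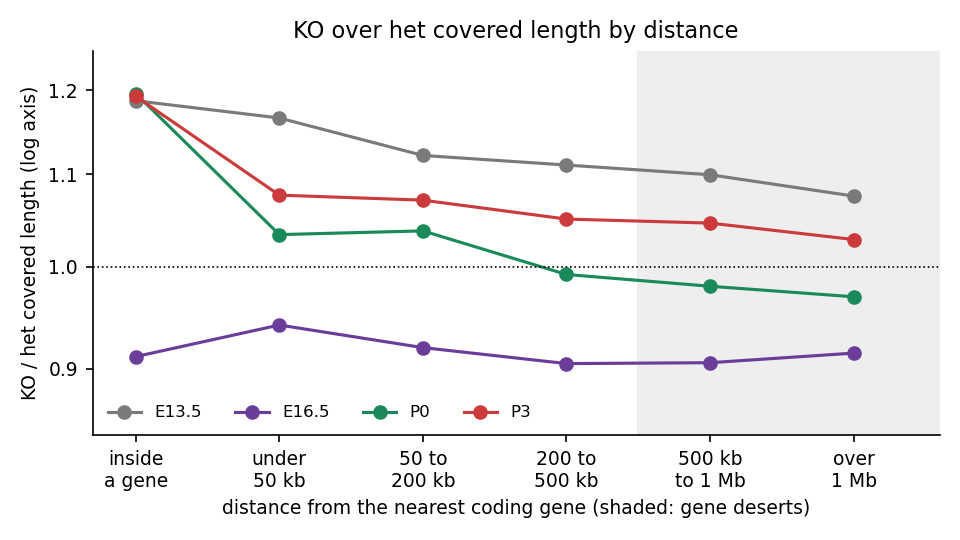
KO over het covered length (vertical axis, log scale) in 6 classes of distance from the nearest coding gene (horizontal axis; shaded, gene deserts), 1 line per stage. At P0 and P3 the line starts near 1.2 inside genes and ends at 0.969 and 1.03 beyond 1 Mb, and the E16.5 line stays below 1 throughout.

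The genotype ratio differed with distance from genes at 3 of the stages. At E13.5 it was 1.19 inside genes and 1.08 beyond 1 Mb, at P0 1.20 and 0.969, and at P3 1.19 and 1.03. At E16.5 it lay between 0.905 and 0.941 in all 6 classes. The 2 desert classes at P0 had 0.980 and 0.969, and the class from 200 to 500 kb had 0.992.

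Over the 122 large deserts, KO cover exceeded het cover in 107 (87.7%) at E13.5 and in 5 (4.10%) at E16.5. After birth it did so in 45 (36.9%) at P0 and in 81 (66.4%) at P3. The same shares of the windows outside cores were 91.8%, 10.5%, 74.8% and 81.7%. At E13.5, E16.5 and P3 the deserts and the windows mostly had the same direction, and at P0 most deserts had more het cover while most windows had more KO cover. The median KO over het ratio of the large deserts was 1.10 (quartiles 1.05 and 1.17) at E13.5, 0.906 (0.862 and 0.939) at E16.5, 0.969 (0.911 and 1.02) at P0 and 1.04 (0.965 and 1.11) at P3.

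**Figure D4:**
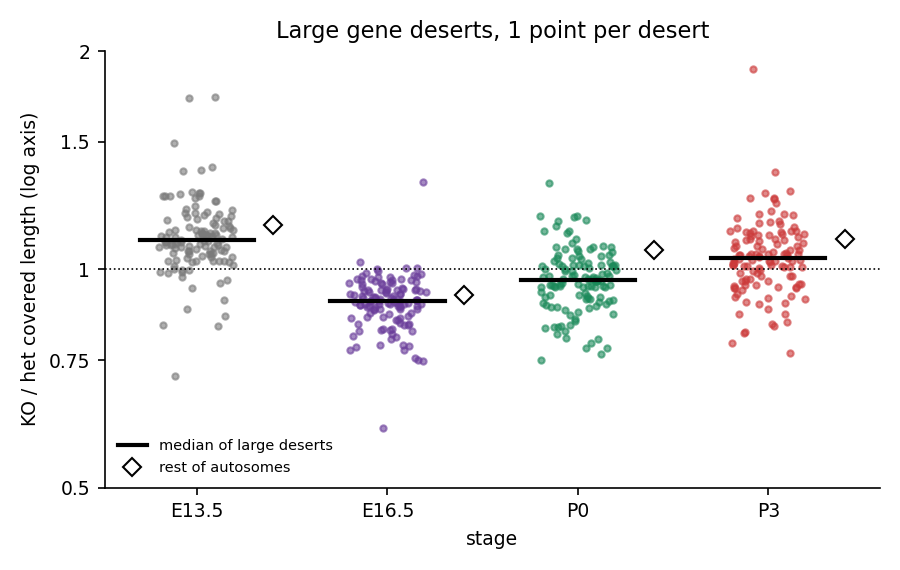
KO over het covered length (vertical axis, log scale) of the 122 deserts with a core of at least 0.5 Mb, 1 point per desert, by stage; black lines are medians and diamonds the rest of the autosomes. The diamond lies above the median at all 4 stages, and at P0 the median is 0.969 and the diamond 1.06.

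At both P0 and P3, het cover exceeded KO cover in 39 large deserts (32.0%) and KO cover exceeded het cover in 43 (35.2%). Among the windows outside cores these shares were 12.9% and 70.1%. Among the 5 deserts in which the smaller of the het excesses at P0 and P3 was largest were Pcdh7 to G6pd2, Kcnt2 to Cdc73, Zeb2 to Acvr2a and Cadm2 to Speer2. Pcdh7 encodes a protocadherin, Kcnt2 a sodium-activated potassium channel, Zeb2 a transcription factor and Cadm2 an adhesion molecule of neurons. In Pcdh7 to G6pd2, the desert that also holds 4933402J10Rik, het peaks covered 752.5 kb (P0) and 621.4 kb (P3) and KO peaks 689.1 and 559.3 kb. These 4 had 4.28% to 12.2% of their cores covered in the E13.5 lists, below the 16.1% and 17.5% of all cores together. The median large desert, however, had 9.44% (het) and 10.3% (KO) covered at E13.5. Pcdh7 to G6pd2, with 10.9% and 12.2%, lay above that median, and the other named deserts of this set lay below it.

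The 5 deserts with the corresponding KO excess were Ptprd to Tyrp1, Gm6749 to Grm7, Tenm3 to Aga, Plod2 to Dipk2a and Adam6a to Zfp386. Ptprd encodes a receptor phosphatase, Grm7 a glutamate receptor, Tenm3 a teneurin of synaptic adhesion and Plod2 a collagen lysyl hydroxylase. In Tenm3 to Aga, KO peaks covered 1311 kb (P0) and 1209 kb (P3) and het peaks 1270 and 1107 kb. In Gm6749 to Grm7 KO peaks covered 319.2 and 343.6 kb and het peaks 277.9 and 274.9 kb. These 5 had 21.7% to 60.3% of their cores covered in the E13.5 lists. The rule selected both sets by the P0 and P3 values, which are therefore a description.

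Ratios were also read over all large deserts, split into 3 sets of low, middle and high mean cover, with 41, 40 and 41 deserts. The mean was taken over all 8 lists and not over the E13.5 lists alone. The KO over het ratio at P0 was 0.928 in the low set, 0.949 in the middle set and 1.00 in the high set. At P3 it was 0.997, 1.01 and 1.07. At E16.5 it was 0.894, 0.884 and 0.928, and at E13.5 it was 1.11, 1.10 and 1.08. By stage, cover at E16.5 in het was 3.22, 2.80 and 1.61 times that at E13.5 in the low, middle and high set, and cover at P0 was 1.11, 0.863 and 0.783 of that at E16.5. The sets were made with the same lists, so these values describe them and test nothing.

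Het and KO peaks overlapped more in deserts than elsewhere. The Jaccard index, the base pairs in both lists divided by those in either, was 0.767, 0.820, 0.751 and 0.703 in the cores, from E13.5 to P3. In the rest of the autosomes it was 0.703, 0.793, 0.692 and 0.663. Between consecutive stages it was 0.474, 0.628 and 0.710 in the cores in het and 0.547, 0.670 and 0.725 in KO, against 0.451, 0.580 and 0.638 (het) and 0.5002, 0.575 and 0.647 (KO) in the rest. Cover was also higher in the cores, and its part in the index was not tested.

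Desert peaks with no base in a peak of the other genotype numbered 713 in het (10.95% [10.2 to 11.7%]) and 1053 in KO (16.1% [15.2 to 17.0%]) at E13.5. Over all autosomal peaks the shares were 11.4% and 21.5%. At E16.5 there were 1648 in het (15.9%) and 588 in KO (6.01%), against 13.6% and 6.72%. At P0 there were 1413 in het (13.4% [12.7 to 14.0%]) and 1243 in KO (12.1% [11.5 to 12.8%]), against 11.6% and 19.6%. At P3 there were 1329 in het (13.9%) and 1623 in KO (16.9%), against 13.7% and 20.6%. Deserts at P0 had more het-only than KO-only peaks, while autosomal peaks as a whole had fewer. The lists were also cut to equal peak numbers by keeping the widest peaks of the larger list. The desert shares were then 13.4% in het and 13.1% in KO at E13.5, 15.5% and 9.98% at P0, and 15.4% and 14.8% at P3. At E13.5 and P3 the shares of both genotypes were thus nearly equal, and that of KO was no longer the higher. Genotype-specific desert peaks were narrower than shared ones, with medians of 1001 and 3445.5 bp in the E13.5 KO list. The cut by width therefore bears on them directly, and the part of list size in the order was not tested.

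Among long genotype-specific desert peaks, het-only ones outnumbered KO-only ones at E16.5, P0 and P3, and KO-only ones outnumbered het-only ones at E13.5. The same order was found outside deserts. Of desert peaks of at least 3 kb, 330 of 5998 in het (5.50% [4.95 to 6.11%]) and 55 of 5657 in KO (0.972% [0.748 to 1.26%]) had no counterpart at P0. At P3 these numbers were 298 of 5229 (5.70%) and 131 of 5199 (2.52%). At E16.5 they were 102 of 5887 (1.73%) and 7 of 5524 (0.127%), and at E13.5 they were 26 of 2979 (0.873%) and 46 of 3168 (1.45%). In the rest of the autosomes the shares were 0.432% in het and 1.84% in KO at E13.5 and 0.777% and 0.201% at E16.5. After birth they were 5.91% and 1.33% (P0) and 5.22% and 2.29% (P3), near those of the deserts. Of the 330 long het-only desert peaks at P0, 250 (75.8% [70.9 to 80.1%]) met only a het peak at P3, 4 met only a KO peak, 40 met peaks of both genotypes and 36 met none. In the rest, 74.9% of such peaks met only a P3 het peak. Of the 55 long KO-only desert peaks at P0, 22 (40.0%) met only a P3 KO peak, against 39.0% of the 385 in the rest.

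The longest genotype-specific desert peaks of each stage were covered in part or whole by peaks of other stages, in both genotypes. At P0 the longest het-only peak was 18.7 kb (chr1:49753171-49771915, Slc39a10 to Tmeff2), of which E16.5 peaks covered 10.3 kb in het and 9.42 kb in KO, and P3 peaks 9.83 kb (het) and 0.637 kb (KO). The longest at P3 was 14.9 kb (chr12:27881239-27896185, between Sox11, a transcription factor, and Dcdc2c). The same 14.9 kb was covered for at least 10.3 kb in all 6 lists of the earlier stages, and for 14.7 kb in KO at P0. The longest KO-only peaks were 18.1 kb at E13.5 (chr8:50753751-50771867, Tenm3 to Aga), 5.14 kb at E16.5 (Bckdhb to Tent5a), 7.01 kb at P0 (Got2 to Cdh8) and 17.3 kb at P3 (chr8:101156094-101173432, Cdh8 to Cdh11). The first of these was covered for at least 14.2 kb in all 6 lists of the later stages, in both genotypes. Of the P0 peak, P3 peaks covered 3.70 kb in het and 0 kb in KO. Of the P3 peak, E16.5 peaks covered 17.3 kb in het and 8.78 kb in KO, and P0 peaks 6.65 and 6.78 kb. The longest het-only peaks of the embryonic stages were 10.05 kb at E13.5 (Khdrbs3 to Fam135b) and 8.90 kb at E16.5 (Cdh8 to Cdh11).

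The 10 longest deserts ran from 3.68 Mb (Pcdh7 to G6pd2) to 4.54 Mb (Pcdh20 to Pcdh9, chromosome 14). In Pcdh20 to Pcdh9, which lies between 2 protocadherin genes, het peaks covered 11.5%, 29.7%, 24.2% and 17.7% of the core from E13.5 to P3, and KO peaks 12.1%, 26.9%, 22.9% and 17.1%. Celf4 to Pik3c3 (4.51 Mb, chromosome 18), between an RNA-binding protein and a lipid kinase of autophagy, had 3.72% to 12.7% of its core covered in any list. In contrast, Cntnap5b to Cdh20 (4.28 Mb, chromosome 1) had 32.7% to 54.3% and Tenm3 to Aga (3.99 Mb, chromosome 8) 37.1% to 58.6%. Deserts of similar length thus differed widely in cover.

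Stage differences in these 10 deserts mostly followed the sum over all cores. In 8 of the 10 cover was highest at E16.5 in both genotypes. The exceptions were Zeb2 to Acvr2a, where cover was highest at P0 (500.3 kb in het and 444.0 kb in KO, against 487.7 and 437.6 kb at E16.5), and Celf4 to Pik3c3, where the het value was 372.3 kb at E16.5 but 446.3 kb at P0. At E13.5 these 2 deserts had the least cover of the 10.

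**Figure D5:**
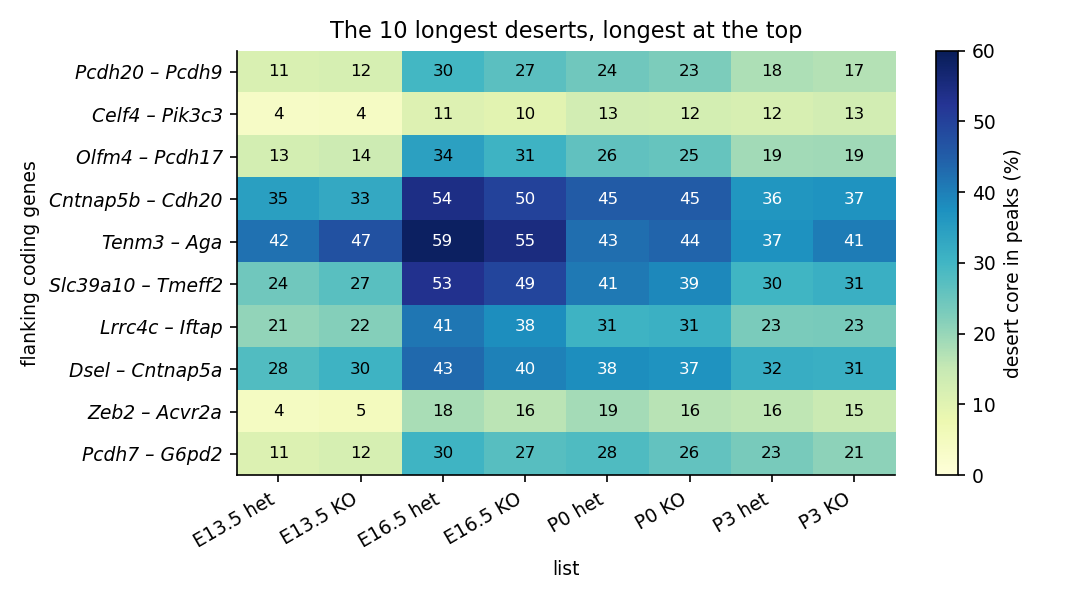
The percentage of the core in H3K9me3 peaks (colour and printed value) in the 10 longest gene deserts (rows, named by their flanking coding genes) in each of the 8 lists (columns). Tenm3 to Aga and Cntnap5b to Cdh20 range from 32.7% to 58.6%, and Celf4 to Pik3c3 and Zeb2 to Acvr2a from 3.72% to 18.6%.

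By covered base pairs, Cntnap5b to Cdh20, flanked by a contactin-associated protein and a cadherin, led the lists of E16.5 het (1781 kb), P0 (1485 kb in het, 1490 kb in KO) and P3 (1196 and 1211 kb). Tenm3 to Aga led in KO at E13.5 (1424 kb) and E16.5 (1659 kb). D3Ertd751e to Pcdh10 on chromosome 3 led in het at E13.5 (1407 kb). By share of the core, Epha6 to Nsun3 was the most covered large desert in every list, with 60.2% (P3 het) to 82.5% (E16.5 het). The least covered was Kcnj3 to Nr4a2 at E13.5, with 0.514% in het and 0.890% in KO, and Gm36448 to Dad1, the T cell receptor alpha locus, in the other 6 lists, with 0.439% to 2.62%. The median large desert had 9.44% of its core covered in het at E13.5, and 28.1%, 26.2% and 20.8% at the later stages. The 10 deserts with the most cover in a list held 30.9% of the desert length in het at E13.5 and 22.4%, 20.1% and 20.4% at the later stages.

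Single deserts differed between genotypes by more than the sums did. In Klhl29 to Apob (chromosome 12), next to the gene of apolipoprotein B, het peaks covered 514.1 kb and KO peaks 767.7 kb at E13.5, the largest KO excess of that stage. At E16.5 the order was opposite, with 845.7 kb in het and 720.6 kb in KO, and at P0 it was 509.9 and 602.3 kb, the largest KO excess at P0. In Khdrbs3 to Fam135b (chromosome 15), flanked by a splicing regulator, het peaks covered 266.6 kb and KO peaks 190.0 kb at E13.5, the largest het excess of that stage. At E16.5 they covered 576.7 and 349.1 kb, and at P3 361.6 and 408.3 kb. In Cdh8 to Cdh11 (chromosome 8), between 2 cadherin genes, het peaks covered 1433 kb and KO peaks 1188 kb at E16.5, the largest het excess at E16.5. At P3 they covered 838.3 and 1077 kb, the largest KO excess at P3. In these 3 deserts the direction was thus not the same at all stages.

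The largest het excess at P0 was in Hace1 to Grik2 (chromosome 10), between a ubiquitin ligase gene and a kainate receptor gene, with 733.4 kb (het) and 625.8 kb (KO). At E16.5 it had 744.7 and 702.5 kb and at P3 499.4 and 472.6 kb. The largest KO excess at E16.5 was in Ppp6c to Lrp1b (chromosome 2), with 215.6 kb (het) and 227.8 kb (KO). At P3 the largest het excess was in Pcdh7 to G6pd2. With 1 list per group, the spread of such differences between samples of the same group is unknown.

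Non-coding genes in the cores were touched more often than those elsewhere. A gene was placed in a core by its midpoint, and pseudogenes that RefSeq classes as transcribed were not counted. Of 276 lncRNA genes in the cores, 125 (45.3%) had at least 1 base in a het peak at E13.5, and 173 (62.7%), 177 (64.1%) and 176 (63.8%) had so at the later stages. In KO there were 127, 173, 186 and 171. Of the 12046 lncRNA genes elsewhere, 23.9% to 38.0% were touched. Of 457 pseudogenes in the cores, 90, 175, 136 and 110 were touched in het from E13.5 to P3, and 95, 162, 134 and 120 in KO. These were 19.7% to 38.3% of them, against 12.4% to 19.4% of the 8340 pseudogenes elsewhere, and the core share was the higher in each list. Pseudogenes thus followed the stage order of desert cover, with the most at E16.5, and lncRNA genes did not. Gene lengths differ between classes and were not matched. Peaks also covered more of the core length (16.1% to 32.1%) than of the rest of the autosomes (5.80% to 12.3%). The part of this difference in the shares of touched genes was not tested.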

How the data were processed

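H3K9me3 was profiled by ChIP-seq in germ cells of 4 stages and 2 genotypes, with 2 samples per group. The authors deposited 8 peak lists of 3 columns without header or scores: chromosome and peak start and end in base pairs (a unit other than counts or signal), 1 list per group. The lists name no replicate, so each was used as 1 pooled list. The submitters' processing notes name mm10, bcl2fastq 2.20, cutadapt 1.18, Bowtie2 2.3.4.1, deepTools 3.5.0 and HOMER 4.10. Peak thresholds, the use of the H3 samples, read depth and the handling of replicates are not given in the sources used here.

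Genes came from the RefSeq table of GRCm38.p6, and 333 genes that it gives in coordinates of unplaced scaffolds were left out. Distance was measured from a peak's midpoint to the nearest coding gene body. A desert is named by its 2 flanking genes. Covered length is the summed width of desert peaks, and core percentages count peak bases within cores. A peak was shared if 1 bp or more of it lay in a peak of the other list. Printed coordinates are 1-based. Named deserts are the 10 longest, the most covered of each list, those with the largest difference between genotypes in each direction per stage, and up to 5 per direction that differed alike at P0 and P3. Named peaks are the longest of each list and the longest genotype-specific ones. miRNA genes and promoters were added after the lists had been read. The members and lists were chosen with earlier results of these data known. No test between lists was possible. Alternatives were other distances, a minimum width of 3 kb, equal peak numbers, all RefSeq genes as bounds and a stricter overlap. For equal peak numbers, the larger list was cut to the size of the smaller by keeping its widest peaks. Functions were tested on simulated intervals. Python 3.11.15, numpy 2.4.6, pandas 2.3.3 and scipy 1.17.1 were used. Sequence of the peaks themselves was not used here. Some named deserts are not reported here.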

Additional observations from a re-analysis of the deposited data

Results flagged for a closer look

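The ratio of desert covered length in KO to het differed in direction between stages. It was above 1 at E13.5 (1.09) and P3 (1.04) and below 1 at E16.5 (0.909) and P0 (0.976). The 95% counting interval of the P0 value included 1, and those of the other stages did not. These intervals were carried over from peak numbers and leave out the spread of peak widths. This difference between stages was not tested, since each group had 1 list, and the part that depth or calling has in it was not tested.

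The X chromosome lay outside the rule and also held desert peaks. They numbered 296 in het and 320 in KO at E13.5, 573 and 573 at E16.5, 566 and 559 at P0, and 441 and 478 at P3. The KO over het ratio of their length was 1.18, 1.03, 1.01 and 1.17, so that unlike the autosomal deserts it was not below 1 at E16.5 or P0. The ratio in the rest of the X chromosome was 1.20, 1.03, 0.963 and 1.11. The difference between X and autosomal deserts was not tested.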

How the results depend on the processing

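No paired analysis was possible because each group had 1 list and the lists carry no replicate, and for the same reason no replicate could be left out. Of 136 recomputed values, 75 stayed within counting error of the value in the report and 61 differed by more. For ratios and shares of covered length and for Jaccard indices, this error was carried over from counts of peaks. No ratio of KO to het or between stages crossed 1. The other values, such as shares, Jaccard indices and widths, had no such limit to cross. With equal peak numbers, the het and KO genotype-specific shares were nearly equal at E13.5 and P3, and that of KO was no longer the higher. Counting error understates the real error, since depth is unknown and neighbouring peaks are not independent. With all RefSeq genes as bounds, KO over het was 0.876, 0.920 and 1.08 for the last 3 stages. At a distance over 250 kb, P0 over E16.5 was 0.918 in het and 0.993 in KO. At a distance over 1 Mb it was 0.835 and 0.885, and E16.5 over E13.5 in het was 1.90. The Jaccard indices at that distance were 0.778, 0.833, 0.765 and 0.720 from E13.5 to P3, and the median widths were 2914, 3922, 3896 and 3579 bp in het and 3095, 3871, 3824 and 3639 bp in KO. With peaks of at least 3 kb, E16.5 over E13.5 was 2.16 in het and 1.75 in KO, P0 over E16.5 0.836 and 0.898, and P3 over P0 in het 0.779. Deserts then held 25.9%, 26.2%, 21.0% and 18.5% of the covered length in het and 24.9%, 26.1%, 20.0% and 17.5% in KO, and the Jaccard index was 0.741 at P0 and 0.691 at P3. With equal peak numbers, E16.5 over E13.5 in het was 1.91 and P0 over E16.5 in KO 0.896. The genotype-specific shares were then 13.4%, 13.6%, 15.5% and 15.4% in het and 13.1%, 7.35%, 9.98% and 14.8% in KO. Counting a peak as specific when under 50% of it was overlapped gave 15.0%, 21.7%, 18.6% and 19.05% in het and 23.0%, 8.19%, 16.3% and 23.2% in KO. In an alternative chosen after seeing the data, without the 3 deserts of antigen receptor segments, deserts held 19.6%, 21.7%, 17.6% and 15.8% of the covered length in het and 18.8%, 21.4%, 16.4% and 15.0% in KO. The cause of these differences was not tested. A second such alternative, which kept the genes of scaffolds, moved no value beyond counting error.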
